A study of Drosophila melanogaster with 6 samples.

Results

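The 10 genes of this account encode cell adhesion molecules of fly neurons, and their RNA levels were compared between 2 ages of the olfactory projection neurons of Drosophila melanogaster. They are Fas1, Fas2, Fas3, Nrg, Nrt, Cont, Lac, klg, ed and fred. They were picked by symbol from a table of 14138 genes, and all 10 were found. Projection neurons are the second-order neurons of the fly olfactory system, with dendrites in the antennal lobe and axons in the mushroom body and lateral horn. Adult neurons, from flies of 5 days, were set against neurons in development, 36 h after puparium formation, with 3 libraries per group. Every library came from about 2000 GFP-marked cells sorted by flow cytometry and prepared by the SMART-seq2 protocol, which makes cDNA over the full transcript length. All flies were untreated. The labels give neither the driver of the GFP marker nor the genotype or sex of the flies, and do not say whether libraries of a group were separate sorts or animals. P-values therefore reflect only how much these libraries varied, and that variation may be technical. No 2 libraries of a group were alike within counting noise, since chi-square per degree of freedom was 42.0 to 60.4 between adult libraries. Between development libraries it was 68.0 and 55.8 for the pairs with replicate 1, and 17.0 for replicates 2 and 3. By this measure replicate 1 stood apart from the other development libraries, and values without it are given where it matters. The correlation of log2 values was 0.9926 and 0.9919 for the pairs with development replicate 1 and 0.9935 for replicates 2 and 3. Between adult libraries it was 0.9888 to 0.9897.

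Adhesion molecules of this kind sit on the neuronal surface, where most of them bind an identical molecule or a different partner on a neighbouring cell. In the fly they are known for holding axons together in bundles, for guiding growth cones, for stabilising synapses and, in epithelia and glia, for building septate junctions, the barrier junctions of insects. Some of them are linked inside the cell to ankyrins, spectrins or scaffold proteins, and several feed into signalling by growth factor receptors.

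Adult projection neurons had more Fas1 RNA and less of 6 others than developing ones. Fas1 rose 6.95-fold in the ratio of group means. Lac, Fas3, fred, Fas2, klg and Nrg fell, with the mean in development 11.8, 4.35, 3.15, 2.26, 2.08 and 1.91 times that in adult. Nrt, Cont and ed did not pass the test. Of all 6814 genes tested, 65.1% passed, 27.2% higher and 37.9% lower in adult (limma, adjusted p under 0.05), so 7 of 10 is near the share of all genes. The libraries of both groups did not overlap for 7 of the 10 genes, against 69% of all genes tested. Lac reached the expression filter of 5 CPM (reads of a gene per 1000000 reads counted in genes) through its development libraries alone. This means that Lac had to differ. The split of all calls depends on the scaling: 1856 genes were higher and 2583 lower as deposited, against 2291 higher and 2119 lower with TMM scaling, while the 7 calls among the 10 genes stayed the same. In RNA from sorted pools, fewer cells of a type and less RNA per cell cannot be told apart. The median log2 fold change was -0.98 over the 10 genes and -0.15 over all genes tested.

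**Figure D1:**
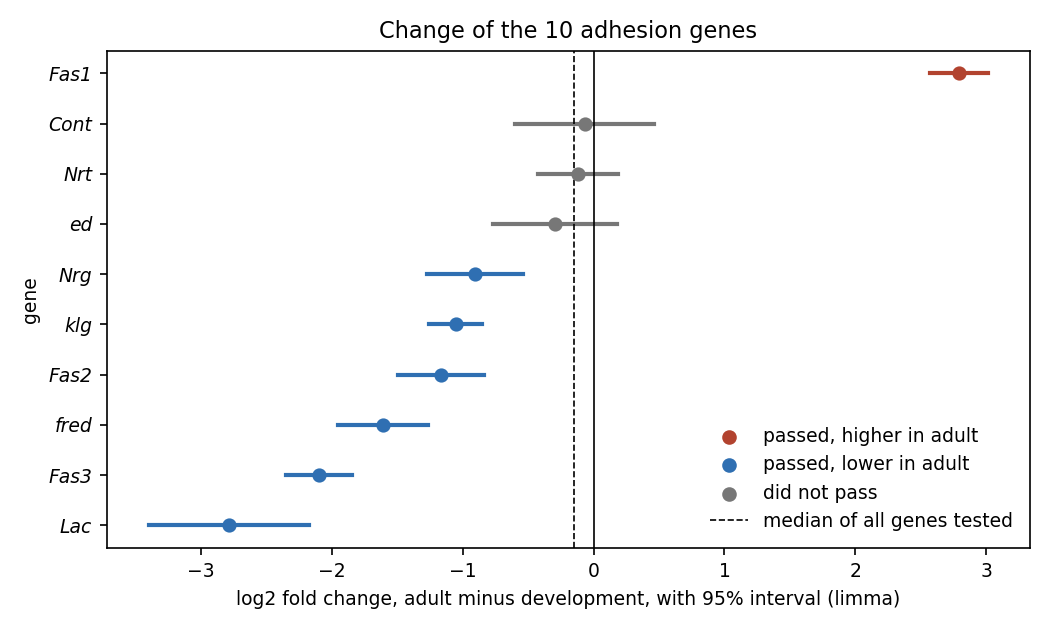
Log2 fold change, adult minus development, of log2(CPM + 1) values (x axis) of each of the 10 genes (y axis), with points for the estimate and bars for the 95% interval from limma. Fas1 alone lies to the right, at 2.79, the intervals of 6 genes lie wholly to the left of 0, and those of Cont, Nrt and ed span 0; the dashed line is the median of all genes tested, -0.15.

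The 3 fasciclins share a name and not a structure. Fas1 (FBgn0285925, 3R, 16625238 to 16639771) encodes a membrane-tethered protein with fasciclin domains, which binds to itself and is named for the axon bundles it marks in insect embryos. Its level was 4483, 3586 and 4402 CPM in adult replicates 1, 2 and 3, against 637, 554 and 603 CPM in development. The lowest adult library was far above the highest development library. The log2 fold change was 2.79 ± 0.10 (SE), with a 95% interval of 2.57 to 3.01 (limma, adjusted p = 6.69e-11), and it was the 157th largest rise among the genes tested. The only other fasciclin-domain gene examined, mfas (midline fasciclin), had 30.5, 47.5 and 26.0 CPM in adult and 52.7, 50.0 and 46.0 CPM in development. Its groups overlapped through adult replicate 2, and it fell by 0.55 ± 0.20 on the log2 scale (limma, adjusted p = 0.0285). That call ended under 7 of 14 other settings, among them leaving out adult replicate 1 or 3 or development replicate 1 or 2 (limma, adjusted p = 0.0694 to 0.128). Within a library, Fas1 had 147, 75.6 and 169 times the CPM of mfas in adult and 12.1, 11.1 and 13.1 times in development.

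Fas2 (FBgn0000635, X, 4132887 to 4206093) encodes the fly relative of the vertebrate cell adhesion molecule NCAM, with immunoglobulin and fibronectin domains, and is used in axon bundling and at synapses. It had 118, 115 and 88.6 CPM in adult against 296, 205 and 228 CPM in development. The groups did not overlap, and development replicate 1 was the highest library. The log2 fold change was -1.17 ± 0.15 (SE; limma, adjusted p = 1.38e-05), and -1.02 without that library. The scaffold gene dlg1, whose product clusters Fas2 at synapses of the fly neuromuscular junction, fell by 0.53 ± 0.10 (limma, adjusted p = 0.00028), with 231 ± 12.7 CPM in adult and 333 ± 6.35 CPM in development (SD, n = 3 each).

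Fas3 (FBgn0000636, 2L, 18320102 to 18393441) encodes an immunoglobulin protein that binds to itself and serves in target recognition by motor axons and in septate junctions of epithelia. It had 51.0, 53.4 and 50.2 CPM in adult against 203, 235 and 234 CPM in development. Both groups were tight, with a coefficient of variation of 3.32% in adult and 8.01% in development. Fas3 fell by 2.10 ± 0.12 on the log2 scale (SE; limma, adjusted p = 4.06e-09), the 223rd largest fall among the genes tested.

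Neuroglian, from Nrg (FBgn0264975, X, 8517373 to 8555170), is the fly member of the L1 family of adhesion molecules and is linked to the membrane skeleton through ankyrin. Nrg had 76.5, 68.5 and 57.9 CPM in adult against 164, 121 and 103 CPM in development. The groups did not overlap, but the development libraries were spread, with a coefficient of variation of 24.3% and replicate 1 highest. The log2 fold change was -0.91 ± 0.17 (SE; limma, adjusted p = 0.000353), and -0.72 without development replicate 1 (adjusted p = 0.000911). The ankyrin genes moved less. Ank2, the neuronal ankyrin gene, had 1807 ± 185 CPM in adult and 1816 ± 129 CPM in development (SD, n = 3 each; limma, adjusted p = 0.932). Ank had 88.2, 83.0 and 82.2 CPM in adult against 63.4, 73.7 and 80.4 CPM in development. Its log2 fold change of 0.22 ± 0.13 missed the threshold (limma, adjusted p = 0.152) and passed it with both other scalings (adjusted p = 0.0237 and 0.0144).

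Neurotactin, from Nrt (FBgn0004108, 3L, 16766072 to 16777465), is a transmembrane protein whose outer part resembles cholinesterases without their catalytic function, and it binds the secreted immunoglobulin protein Amalgam. Nrt had 117, 102 and 98.1 CPM in adult against 136, 96.0 and 114 CPM in development. The groups overlapped, and the log2 fold change of -0.12 had a 95% interval of -0.43 to 0.19 (limma, adjusted p = 0.479). As deposited, a fall larger than 0.43 or a rise larger than 0.19 on the log2 scale lies outside it. These bounds depend on the scaling, as the estimate was 0.0316 with median of ratios and 0.0618 with TMM scaling. The gene of its ligand, Ama, fell, with 1.28, 0 and 0.148 CPM in adult, which are 54, 0 and 6 reads, against 7.58, 7.21 and 9.78 CPM in development (log2 fold change -2.73 ± 0.37; limma, adjusted p = 1.98e-05). That value depends on the pseudocount and the test, running from -1.27 to -5.75 over the other settings, and Ama too passed the filter through development alone. Of the exonic bases of Nrt, 21.8% lie opposite mus302, listed in the table as CG13025. Whether reads were counted by strand is unknown, so reads of the shared stretch cannot be assigned with certainty. CG13025 had 24.4 ± 4.55 CPM in adult and 27.3 ± 3.01 CPM in development (SD, n = 3 each). Within a library, Nrg had 0.657, 0.674 and 0.590 times the CPM of Nrt in adult, and 1.20, 1.26 and 0.905 times in development, a ratio without overlap between the groups that is given as a description.

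Contactin and Lachesin are attached to the membrane by a lipid anchor and are parts of septate junctions, contactin in a complex with neuroglian and Neurexin IV. Cont (FBgn0037240, 3R, 4381306 to 4387018) had 14.9, 11.6 and 22.5 CPM in adult against 17.2, 13.9 and 19.0 CPM in development. The adult libraries enclosed the range of the development libraries. The log2 fold change was -0.07, with a 95% interval of -0.60 to 0.47 (limma, adjusted p = 0.827). Lac (FBgn0010238, on 2R) had 1.52, 0.824 and 1.28 CPM in adult, from 64, 27 and 52 reads, against 17.1, 14.1 and 11.5 CPM in development, from 532, 488 and 214 reads. The lowest development library had 7.59 times the CPM of the highest adult library. The log2 fold change was -2.78 ± 0.28 (SE) with an adjusted p of 1.28e-06 (limma), the 94th largest fall among the genes tested. As Lac passed the filter through its development libraries alone, it had to differ, and this call and rank are no support. Since a pseudocount of 1 is close to the adult level, the size depends on it, from -1.62 with a pseudocount of 5 to -3.58 with voom on reads.

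Septate junction proteins are also made by glia. Beside the fall of Lac, the glial receptor gene moody, which is needed for the blood-brain barrier, had 0.592, 0 and 1.03 CPM in adult and 3.50, 1.45 and 2.15 CPM in development. The glial transcription factor gene repo had 1.09, 1.34 and 0.811 CPM in adult and 0.931, 0.869 and 0.753 CPM in development. Gli had at most 0.579 CPM in any library. Of the 5 glial markers tested, wrapper and nrv2 fell, as Lac did, Gs2 and alrm rose, and Eaat1 did not pass. Gs2 had 256, 369 and 375 CPM in adult against 62.0, 44.1 and 46.5 CPM in development, and alrm had 25.2, 32.9 and 20.9 CPM in adult against 11.2, 3.42 and 10.5 CPM in development. The sum of all 8 glial markers was 474 to 617 CPM in adult and 302 to 342 CPM in development, most of it from Gs2 and nrv2. The part of glial RNA in the Lac result was not tested.

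Nrx-IV, the gene of Neurexin IV, had 287, 221 and 208 CPM in adult against 477, 443 and 438 CPM in development and fell by 0.93 ± 0.12 on the log2 scale (limma, adjusted p = 1.36e-05). Its intracellular binding partner coracle, from cora, went the other way, with 149 ± 7.33 CPM in adult and 83.5 ± 10.3 CPM in development (SD, n = 3 each), a log2 fold change of 0.83 ± 0.12 (limma, adjusted p = 5.31e-05). So the genes named here for 1 complex were higher (cora), lower (Nrx-IV and Nrg) and without a call (Cont) in the same neurons.

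Klingon, from klg (FBgn0017590, 3R, 22899284 to 22961731), is an immunoglobulin protein that binds to itself, acts in photoreceptor differentiation and long-term memory, and binds the glial protein Wrapper. It had 486, 422 and 472 CPM in adult against 915, 1019 and 930 CPM in development. The groups were far apart relative to their spread, with coefficients of variation of 7.30% in adult and 5.90% in development. The log2 fold change was -1.05 ± 0.09 (SE; limma, adjusted p = 3.40e-07). The wrapper gene was low in both groups, with 6.06, 2.14 and 1.89 CPM in adult and 7.35, 7.56 and 6.29 CPM in development. It fell by 1.01 ± 0.35 on the log2 scale (limma, adjusted p = 0.0207), a call that ended under 6 of 13 other settings, among them leaving out adult replicate 2 or 3 or development replicate 1 or 2 (limma, adjusted p = 0.0583 to 0.0694).

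Echinoid and Friend of echinoid are close relatives among the immunoglobulin adhesion proteins. Their genes are neighbours on 2L and point away from each other: fred (FBgn0051774, 3902928 to 3991713) is on the minus strand and ed (FBgn0000547, 4031377 to 4115749) on the plus strand, with 39.7 kb and 9 annotated genes between them, 6 of them coding. Echinoid is known for adherens junctions, for holding back signalling by the epidermal growth factor receptor and, with its relative, for links to Notch signalling. The fred gene had 17.0, 20.5 and 19.0 CPM in adult against 62.8, 57.5 and 57.7 CPM in development, with no overlap and a coefficient of variation of 5.04% in development. Its log2 fold change was -1.61 ± 0.16 (SE; limma, adjusted p = 9.25e-07). For ed the values were 17.8, 25.8 and 22.8 CPM in adult and 20.9, 35.4 and 26.7 CPM in development, and the groups overlapped. Its log2 fold change of -0.30 had a 95% interval of -0.77 to 0.18 (limma, adjusted p = 0.249). The interval of fred, -1.95 to -1.27, lies wholly below that of ed. Within a library, ed had 1.05, 1.25 and 1.20 times the CPM of fred in adult, against 0.334, 0.616 and 0.462 times in development. This ratio does not depend on how libraries are scaled, and it did not overlap between the groups; it is given as a description. An antisense RNA gene covers 3.10% of the exonic bases of ed and had at most 0.237 CPM in any library.

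Of the proteins that Echinoid works with, the scaffold Canoe is encoded by cno, which had 152, 158 and 176 CPM in adult against 25.1, 16.2 and 17.9 CPM in development. It rose by 3.00 ± 0.17 on the log2 scale (limma, adjusted p = 3.96e-09), a larger value than that of Fas1. The polarity gene baz, whose product also binds Echinoid, fell by 1.08 ± 0.29 (limma, adjusted p = 0.00497), with 6.65 ± 2.95 CPM in adult and 14.3 ± 1.33 CPM in development (SD, n = 3 each). That call ended when no filter was applied (limma, adjusted p = 0.0541). The receptor gene Egfr stayed below the filter, with 0.166, 0.183 and 0.418 CPM in adult and 0.161, 0.695 and 3.28 CPM in development, and was not tested. Abl, the tyrosine kinase gene that interacts genetically with Fas1 in axon guidance, had 166, 168 and 169 CPM in adult and 297, 193 and 152 CPM in development and missed the threshold (limma, adjusted p = 0.18). Its log2 fold change was -0.03 without development replicate 1 (limma, adjusted p = 0.85) and -0.51 without development replicate 3, where it passed (limma, adjusted p = 0.0167).

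Levels of different genes were compared as CPM per kb of merged exons, which counts the exons of all annotated isoforms and so understates a gene that uses few of them. In adult the order was Fas1 (853 ± 102), klg (114 ± 8.29), Nrt (24.6 ± 2.29), Fas2 (14.7 ± 2.23), Fas3 (7.79 ± 0.258), Nrg (6.77 ± 0.935), Cont (3.45 ± 1.19), ed (3.44 ± 0.627), fred (2.51 ± 0.239) and Lac (0.56 ± 0.163; CPM per kb, SD, n = 3). Fas3 and Nrg overlapped there, as did Cont and ed. In development klg led with 236 ± 13.9 CPM per kb, followed by Fas1 with 123 ± 8.67. Fas3 (33.9 ± 2.72), Fas2 (33.2 ± 6.48) and Nrt (26.9 ± 4.73) came next, each overlapping its neighbour in this run, then Nrg (12.9 ± 3.14). The last 4 in development were fred (7.89 ± 0.398), Lac (6.60 ± 1.29), ed (4.31 ± 1.13) and Cont (3.52 ± 0.547 CPM per kb), again with each overlapping the next. Fas1 and klg were the top pair in both groups, in opposite order, and Nrt was at place 3 in adult and at place 5 in development.

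**Figure D2:**
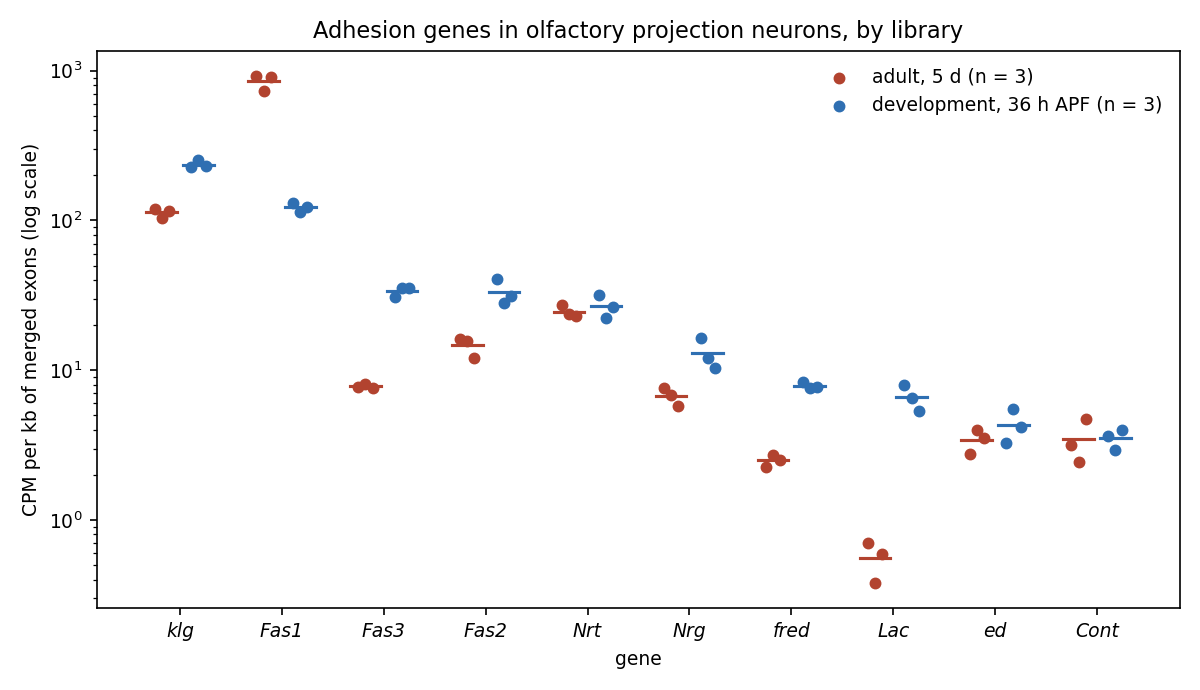
CPM per kb of merged exons on a log axis (y axis) for each of the 10 genes (x axis, ordered by the mean in development), with 1 point per library and a line at the group mean; adult is drawn left of development. The adult points of Fas1 lie above those of development, those of klg, Fas3, Fas2, Nrg, fred and Lac lie below, and those of Nrt, ed and Cont overlap.

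The make-up of the set shifted accordingly. Summed over the 10 genes, the level was 5383, 4405 and 5234 CPM in adult, against 2470, 2350 and 2326 CPM in development. Without Fas1 the sums were 900, 819 and 833 CPM in adult and 1832, 1797 and 1723 CPM in development, so the sum of the 10 was higher in adult and that of the other 9 lower. On the scale of CPM per kb, Fas1 made up 82.7% ± 1.17 of the set in adult and 25.2% ± 1.55 in development, and klg 11.04% ± 0.412 in adult and 48.3% ± 3.28 in development (SD, n = 3 each). Fas3 made up 0.764% ± 0.112 in adult and 6.96% ± 0.692 in development, and Fas2 1.44% ± 0.309 in adult and 6.81% ± 1.20 in development.

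**Figure D3:**
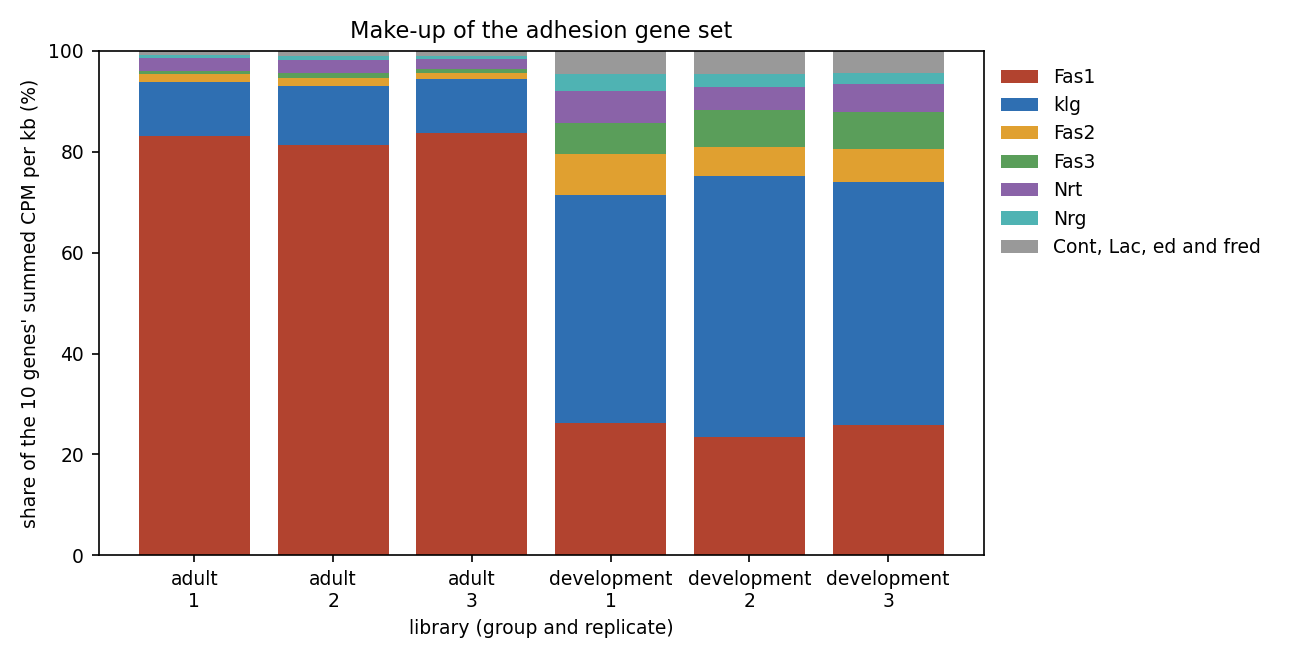
Share of the summed CPM per kb of the 10 genes (y axis, %) taken by each gene in each of the 6 libraries (x axis, adult left of development). Fas1 takes 81.4% to 83.7% in the adult libraries and 23.4% to 26.2% in the development libraries, where klg is the largest share.

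Other genes of the same adhesion systems were taken as 4 lists by role, and their counts are set against the 27.2% higher and 37.9% lower of all genes tested. Of 21 septate junction genes 16 were tested, of which 4 were higher (25%) and 8 lower (50%), with a median log2 fold change of -0.32. The largest falls among those with a mean of at least 20 CPM were pck, the gene of a claudin-like protein, with a log2 fold change of -1.07, and Nrx-IV. The largest rises were Atpalpha, the catalytic subunit gene of the sodium pump, with 1.35, and the polarity scaffold gene scrib, with 0.84. Atpalpha had 46040 ± 2577 CPM in adult and 18310 ± 3570 CPM in development (SD, n = 3 each). The 2 other genes that rose were cora and vari, the call of vari ending under 6 of 14 other settings (limma, adjusted p up to 0.181). Among those that fell were crok, with a log2 fold change of -1.59, crim with -1.31, sinu with -0.78 and cold with -0.67. Of these, crok reached 5 CPM in its development libraries alone, so it had to differ and its place among the 8 is no support. The call of cold ended without development replicate 2 (limma, adjusted p = 0.0763).

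Of 14 ankyrin, spectrin and other intracellular partner genes 13 were tested, 3 higher and 5 lower, with a median of -0.01. The falls were led by hts, the adducin gene, whose product caps actin and binds spectrin, and by the actin regulator gene ena. The hts gene had 130 ± 3.08 CPM in adult and 347 ± 42.1 CPM in development, and ena 47.8 ± 9.03 CPM in adult and 129 ± 49.7 CPM in development (SD, n = 3 each). Development replicate 1 was the highest library for ena, with 186 CPM against 104.5 and 96.5 CPM. The log2 fold change of ena was -1.37 (limma, adjusted p = 0.000105), and -1.54 to -1.07 over the fits that left out 1 library. The spectrin genes alpha-Spec and beta-Spec fell by 0.53 and 0.36 on the log2 scale, the call of beta-Spec ending with both other scalings (limma, adjusted p = 0.0864 and 0.133). The other gene that fell was baz. After cno the largest rise was that of jar, the myosin VI gene, with a log2 fold change of 1.48, and the microtubule-binding protein gene futsch rose by 0.54.

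Of 18 other immunoglobulin, fasciclin-domain and leucine-rich adhesion genes, all tested, 5 were higher and 7 lower, with a median of -0.21. Ama, described above, had the lowest log2 fold change of the list, but its mean was under 20 CPM. It reached 5 CPM in its development libraries alone, so it had to differ and its place among the 7 is no support. Of those that averaged 20 CPM or more, plum, the gene of an immunoglobulin receptor, fell most and had 245 ± 12.0 CPM in adult and 1229 ± 169 CPM in development (SD, n = 3 each), a log2 fold change of -2.31 ± 0.11 (limma, adjusted p = 7.34e-10). It was followed by sdk, whose product Sidekick is a homophilic adhesion molecule, with -1.94. The largest rises at that level were hig, which encodes a protein secreted into synaptic clefts, with 2.00, and kek4, a leucine-rich repeat and immunoglobulin gene, with 1.72. The other 3 that rose were bdl, with 1.92, Bsg, with 0.36, and kek3, with 0.37. With a mean of 15.9 CPM in adult and 3.48 CPM in development, bdl reached 5 CPM in its adult libraries alone, so it had to differ. Among the other relatives of kek4, kek5 fell by 0.56 on the log2 scale, and kek1, kek2 and kek6 did not pass the test, with log2 fold changes of 0.03, -0.08 and -0.21. The call of kek3 ended under 5 of 14 other settings, among them leaving out adult replicate 1 or 2 or development replicate 2 or 3 (limma, adjusted p up to 0.186). The call of kek5 also ended under 5, among them both other scalings and leaving out adult replicate 1 or development replicate 1 (limma, adjusted p up to 0.124). Without development replicate 3, kek6 passed (log2 fold change -0.37, limma, adjusted p = 0.0492).

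Of 16 signalling genes linked to these adhesion molecules 7 were tested, with 0 higher and 4 lower and a median of -0.63; 9, among them Egfr, the Notch gene N and both fibroblast growth factor receptor genes, were below the filter. The falls were those of mats, an adaptor of the Hippo pathway, with a log2 fold change of -2.31, of rl, the ERK kinase gene, with -0.83, of yki, with -0.79, and of Su(H), with -0.50. The call of Su(H), the gene of the transcription factor of Notch signalling, ended under 5 of 14 other settings, which were both other scalings and leaving out adult replicate 3 or development replicate 1 or 2 (limma, adjusted p up to 0.12).

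**Figure D4:**
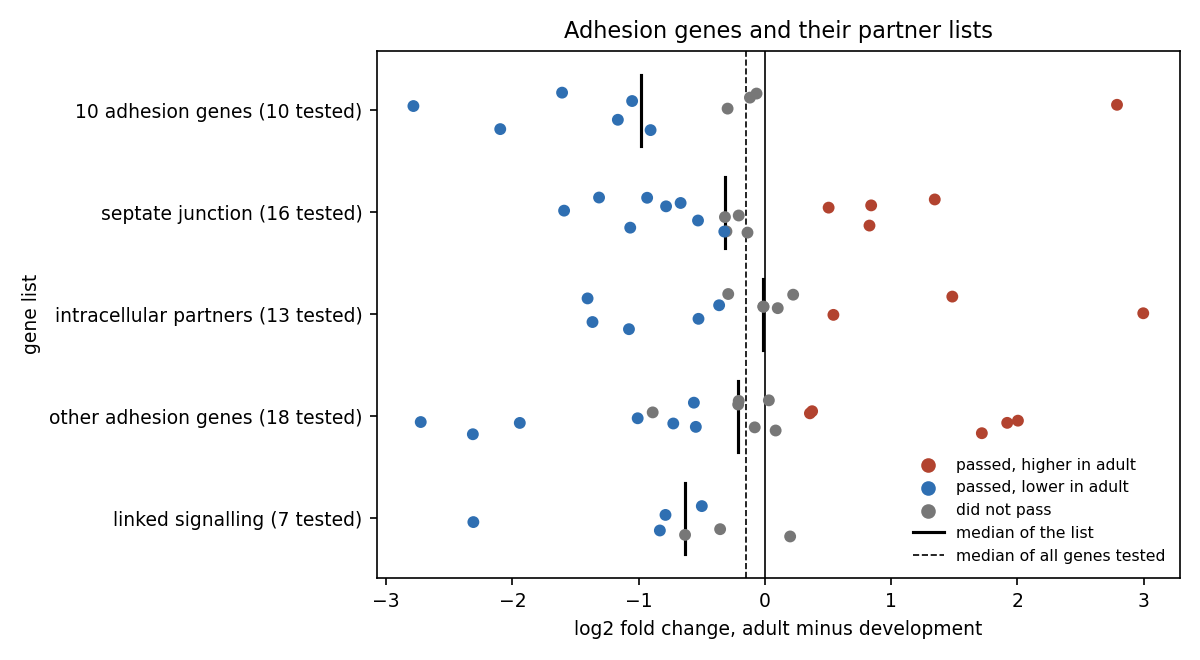
Log2 fold change, adult minus development (x axis), of the tested genes in the 10-gene set and in each of the 4 partner lists (y axis), 1 point per gene, with a black bar for the list median and a dashed line for the median of all genes tested. The 10-gene set has a median of -0.98, and the lists have medians from -0.63 for the signalling genes to -0.01 for the intracellular partners.

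The reads counted in genes, recovered from the values, numbered 18602612 to 42217764 per library, and 7813 to 7979 genes reached 1 CPM in each. The projection neuron genes acj6, Oaz and C15 had at least 136.8 CPM in every library. Levels of vvl were 16.3 to 17.7 CPM in adult and 24.4 to 36.7 CPM in development. Those of Lim1 were 4.52 to 8.58 CPM in adult and 2.58 to 4.57 CPM in development. Of the 10 markers of projection neurons and of neurons in general 9 were tested: ChAT, VAChT and nSyb rose, Oaz, C15 and vvl fell, and acj6, elav and brp did not pass. The 10 summed to 5721 to 5926 CPM in adult and 3840 to 5047 CPM in development. Of 4 hemocyte markers found, Pxn fell, with 224 to 250 CPM in adult and 355 to 491 CPM in development, while Hml, srp and NimC1 had at most 1.18 CPM. Muscle markers summed to at most 6.93 CPM and markers of dividing cells to at most 2.66 CPM in any library. Olfactory receptor neuron markers summed to 23.2 to 37.3 CPM in adult and 1.71 to 4.30 CPM in development. Nearly all of the adult sum was Orco, with 23.2 to 36.0 CPM in adult and 0.782 to 2.60 CPM in development. The markers Or42b, Or22a and Ir25a had at most 1.45 CPM in any library. Kenyon cell markers summed to 81.2 to 94.5 CPM in adult and 33.8 to 45.1 CPM in development, most of it from rut and Dop1R2. Of these, rut rose and Dop1R2 did not pass, while ey, prt and sNPF were below the filter. Of the fat body markers Yp1 and Yp2 rose and Lsp2 and Fbp1 fell, with sums of 34.2 to 47.5 CPM in adult and 35.4 to 50.1 CPM in development. The part of these markers in the results on the adhesion genes was not tested.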

How the data were processed

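RNA of sorted olfactory projection neurons was measured in 6 libraries, 3 adult and 3 development, grouped by title. The authors deposited 1 table of log2 values. The values show these to be log2(CPM + 1), since each library sums to 1000000 CPM after conversion. Per the submitters' processing notes, STAR 2.4.2a and HTSeq 0.7.1 were used, in roles not given there. The build, annotation and strand use of the counting are unknown. Of 14139 rows, 1 without a symbol was left out. Low values were whole multiples of 1 step per library, and 100% of values came out as whole reads within 0.1 read.

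Genes with at least 5 CPM in at least 3 libraries were tested with limma 3.58.1 in R 4.3.3 (lmFit and trended eBayes, two-sided, group as the only term). The values were log2(CPM + 1), a pseudocount that understates changes of low genes, with Benjamini-Hochberg adjustment over all 6814 genes at 0.05. An exact permutation test of 3 against 3 libraries cannot go below 0.1 and was not used. The code was tested on simulated data. Gene coordinates, strands and exons are those of BDGP6.54 (Ensembl release 115), matched by symbol. The alternatives are listed in the closing section.

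Members and lists were chosen with earlier results of these data known. Named are all 10 genes, 11 fixed partners and, per list, up to 2 rises and 2 falls with a mean of at least 20 CPM; baz, crok, crim, sinu, cold, alpha-Spec, beta-Spec, futsch, vari, bdl, Bsg, kek1, kek2, kek3, kek5, kek6, yki and Su(H) were added after their values were seen.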

Additional observations from a re-analysis of the deposited data

How the results depend on the processing

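The calls of all 10 genes were the same under the 14 other settings run, except that a filter at 20 CPM left Cont and Lac untested. The settings were pseudocounts of 0.5 and 5, no filter, a filter at 20 CPM, median of ratios and TMM scaling, a replicate block, voom on recovered reads, and leaving out each library in turn. edgeR and DESeq2 were not run, and voom was the only fit made on recovered reads. Over the fits that left out 1 library, 1 of the 10 genes was called higher and 6 lower every time. In the same fits, 1711 to 1930 of all 6814 genes tested were called higher and 2332 to 2570 lower. Lac, among the 6, passed the filter through development alone, so its call in these fits is no support.

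Scaling moved the median log2 fold change of all genes from -0.15 to -0.01 with median of ratios and 0.02 with TMM, and the share of calls that were higher from 41.8% (1856 higher, 2583 lower) to 52.0% with TMM (2291 higher, 2119 lower). With these scalings the uncalled values of Nrt were 0.0316 and 0.0618, of Cont 0.0762 and 0.105, of Ank2 0.14 and 0.17, and of kek2 0.0692 and 0.0993, where they had been below 0. Leaving out 1 library, Nrt ran from -0.24 to 0.0086, Cont from -0.31 to 0.14, Ank2 from -0.0583 to 0.0779, kek1 from -0.0085 to 0.0773 and kek2 from -0.32 to 0.102. Of the other adhesion genes, 4 were called lower with no filter and 4 with TMM, against 7; of septate junction genes 4 were called lower with the filter at 20 CPM, against 8. The causes were not tested, apart from the filter, which leaves fewer genes to test. Leaving out 1 library, Abl ran from -0.51 (without development replicate 3, where it passed, limma, adjusted p = 0.0167) to -0.03 (without development replicate 1, adjusted p = 0.85).

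With the replicate number as a block, limma called 1855 genes higher and 2573 lower, and no call of the 10 genes changed. Deviations of same-numbered libraries correlated at -0.028, 0.042 and -0.011. Those of differently numbered libraries ran from -0.043 to 0.041, so the numbers were not taken as pairs. Depth limits Lac, with 27 to 64 reads per adult library.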
